A study of Sus scrofa with 20 samples.

Results

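The miR-29 family is a small set of microRNAs (miRNAs, short RNAs that lower the output of messenger RNAs) whose members share a seed, the stretch near the 5′ end that pairs with targets. Every row whose name begins with miR-29a, miR-29b or miR-29c was taken as a member. That gave 3 of 284 rows in the counts against pig miRNAs and 7 of 608 rows in the counts against the human reference, where both arms of a hairpin are named. All 3 pig rows and 5 of the 7 human rows passed the filter on low counts. Peripheral blood mononuclear cells (PBMCs), a density-gradient fraction rich in lymphocytes and monocytes, were taken from female pigs of the American Yorkshire breed that weighed 36 to 41 kg and were 80 to 90 days of age. The Control group was 10 libraries of blood drawn from untreated pigs before surgery. The ICH group was 10 libraries of blood drawn 6 h after an intracerebral hemorrhage, modelled by injecting 2 to 4 mL of the pig's own blood under pressure control through a burr hole into the frontal white matter. Both groups carry the replicate numbers 1 to 10, and a Control and an ICH library of the same number are called a pair below. No sham-operated pigs were analysed here, so the bleed, the surgery and the hours between the draws cannot be told apart.

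Vertebrate genomes carry the family as clustered hairpins, and miR-29b is made from a copy in each cluster. In immune cells the family is known for restraining interferon-gamma and the transcription factors T-bet and Eomes in T cells. Elsewhere it represses collagens and other matrix genes, DNA methyltransferases and the survival factor MCL1. The mature strand that enters the silencing complex is the 3p arm, and the 5p arm is mostly degraded. miR-29c and miR-29a have near-identical mature strands, so the split of their reads depends on how strictly reads were assigned, which is not given in the sources used here.

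In the RefSeq gene table of the pig build Sscrofa11.1 the hairpins form a pair of clusters, and none lies inside another gene's interval. On chromosome 18, MIR29B-1 (18039629 to 18039709) lies 322 bases before MIR29A (18040032 to 18040117), and the nearest protein-coding neighbour on the right is KLF14, 107006 bases away. On chromosome 9, MIR29B-2 (135019079 to 135019162) lies 475 bases before MIR29C (135019638 to 135019725), which is followed 5713 bases later by CD46, a complement regulatory protein. A long noncoding RNA gene is the left neighbour of each cluster.

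A library held 896960 to 2103685 reads in the pig-reference counts and 919313 to 2177834 in the human-reference counts. In the pig-reference counts 18 of 179 tested miRNAs fell (10.1%) and 21 rose (11.7%) past an adjusted p of 0.05, so that 21.8% were called in all (edgeR quasi-likelihood test with the replicate number as a block, Benjamini-Hochberg adjustment over all miRNAs tested). Of the 3 miR-29 rows, 2 fell and 1 did not pass. Without that block edgeR called 0 of 179, with 35 at an unadjusted p under 0.05. DESeq2, run with the block, called 46. A log2 fold change here is always ICH against Control.

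Before the hemorrhage the family made up 0.320% ± 0.0855 of pig-reference reads, and 6 h after it 0.222% ± 0.0624 (SD, n = 10 each). The share was lower after ICH in 9 of 10 pairs; the other pair, number 4, went from 0.2655% to 0.2660%. The sum is a description and was not tested. miR-29a dominated it, with 94.6% ± 0.780 of the family's reads in Control and 94.3% ± 0.586 in ICH. miR-29b took 4.09% ± 0.738 and 4.21% ± 0.640, in the same order. miR-29c took the rest, 0.965% to 1.54% in Control libraries and at most 1.73% in ICH.

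Levels are given as CPM, reads scaled to a common library size after TMM, which adjusts for differences in composition. A read spans a whole mature miRNA, so CPM needs no correction for length. The order miR-29a, miR-29b, miR-29c held in 20 of 20 libraries. Within a library miR-29a was 16.7-fold to 29.1-fold above miR-29b, and miR-29b was 1.91-fold to 4.23-fold above miR-29c. By reads, miR-29a ranked 40 among the 284 pig rows, miR-29b 113 and miR-29c 139. These are ratios of reads, and the part that ligation bias plays in them was not tested.

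miR-29a fell to 0.714 of its level before ICH. In Control it ran from 2235 to 3893 CPM with a median of 2825, and in ICH from 1527 to 2830 CPM with a median of 1943. The groups overlapped in part: 6 of 10 ICH libraries lay below the lowest Control library, and 5 of 10 Control libraries lay above the highest ICH library. The means were 2927 ± 554 and 2105 ± 482 CPM (SD, n = 10 each). edgeR with the block gave a log2 fold change of -0.49 ± 0.094 (SE) at an adjusted p of 0.00231, and the level was lower after ICH in 10 of 10 pairs. Without the block the change was -0.48 ± 0.13 with an adjusted p of 0.0567, so the call rests on the pairing. In bulk RNA, fewer cells of a type and less miRNA per cell cannot be told apart.

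miR-29b, which comes from both clusters, fell to 0.741 of its earlier level. Its Control libraries ran from 85.8 to 226.5 CPM (median 114.9) and its ICH libraries from 59.1 to 150.04 CPM (median 84.6). Most ICH libraries, 7 of 10, were below the lowest Control library, while the other 3 were above the Control median. ICH libraries 2 and 7, at 85.45 and 85.77 CPM, lay only just below that Control library, which had 85.81 CPM. In the human-reference counts, largely the same reads, 4 of 10 ICH libraries were below the lowest Control library. Means were 129 ± 43.6 and 95.3 ± 32.0 CPM (SD, n = 10 each), edgeR with the block gave -0.43 ± 0.13 (log2 fold change ± SE) at an adjusted p of 0.0249, and the level was lower in 9 of 10 pairs. Without the block the adjusted p was 0.231. The call was also lost on leaving out pair 1, 6, 7, 8 or 10, with adjusted p values of 0.0688, 0.0650, 0.0780, 0.0645 and 0.0561 in that order, and it held on leaving out any of the other 5 pairs. These values rest on 58 to 459 reads per library.

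miR-29c did not pass the test. It ran from 29.3 to 63.6 CPM in Control (median 37.0) and from 21.4 to 45.4 CPM in ICH (median 32.4). Here the groups overlapped widely, with 6 of 10 ICH libraries above the lowest Control library. The means were 40.5 ± 11.5 and 33.9 ± 9.03 CPM (SD, n = 10 each), and the log2 fold change of -0.25 ± 0.13 (SE) had an adjusted p of 0.173 (edgeR with the block), with 8 of 10 pairs lower. A library held 20 to 128 reads of miR-29c, and the median counting error was 14.7% of the level in Control and 15.4% in ICH, against 1.70% and 1.98% for miR-29a. Counting errors cover the sampling of reads only.

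**Figure D1:**
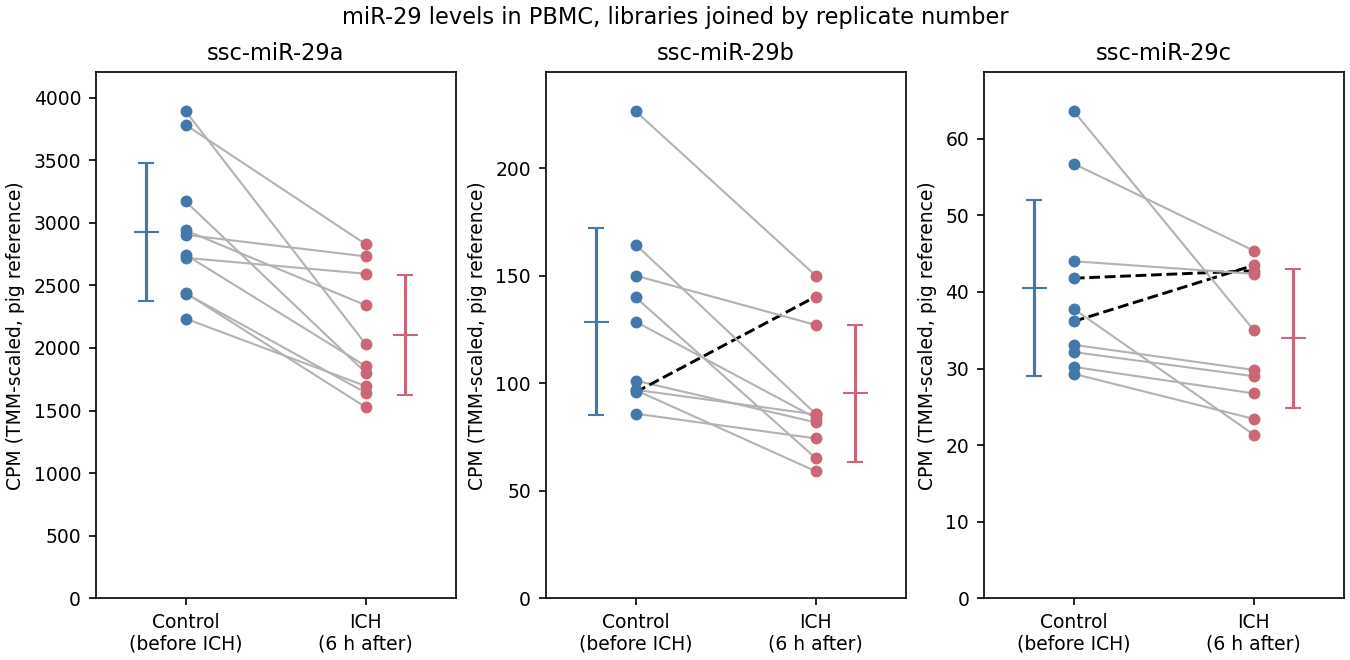
Levels of ssc-miR-29a, ssc-miR-29b and ssc-miR-29c in CPM (TMM-scaled, each panel starting at 0) in 10 Control and 10 ICH libraries, joined by replicate number; bars beside the points are the mean ± SD. Every line of miR-29a slopes down, while dashed black lines mark the pairs that were higher after ICH, 1 for miR-29b and 2 for miR-29c.

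The size of the change differed from pair to pair. For miR-29a the within-pair difference of log2 CPM ran from -0.94 in pair 7 to -0.07 in pair 4, with a median of -0.49. Pair 7 went from 3893 to 2031 CPM, pair 10 from 3172 to 1803 and pair 1 from 2440 to 1527, whereas pair 5 went from 2904 to 2732 and pair 4 from 2721 to 2594. Pair 7 thus had the highest level before ICH and lay in the middle of the levels after it.

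For miR-29b the difference ran from -1.09 in pair 8 to 0.54 in pair 4. Pair 8 went from 139.9 to 65.2 CPM, on 148 and 59 reads, and pair 4 from 95.8 to 140.3 CPM, on 106 and 200 reads. Pair 4 was the one pair in which miR-29b was higher after ICH. For miR-29c it ran from -0.83 in pair 7 to 0.26 in pair 4, and in pair 3 it was 0.03. Pair 4 thus had the highest difference of each of the 3 members in the pig-reference counts, for miR-29a closely followed by pair 5 (-0.09). In the human-reference counts pair 5 was the highest for miR-29a, at -0.01 against -0.07 in pair 4. Without pair 4 the pig-reference log2 fold change of miR-29a was -0.48, that of miR-29b -0.50 and that of miR-29c -0.27, and the same 2 members passed the test.

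**Figure D2:**
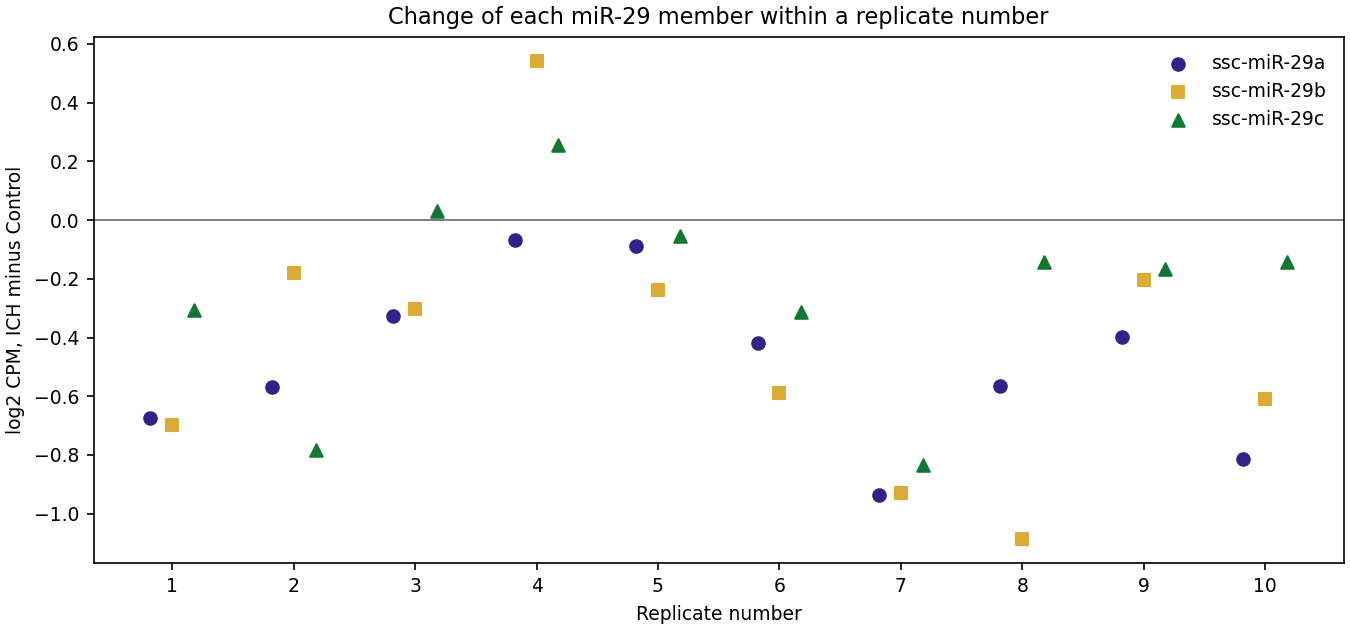
Difference of log2 CPM, ICH minus Control, within each replicate number (horizontal axis) for the 3 pig-reference members; the line marks no difference. Pair 4 holds the highest point of each member, and pair 7 lies between -0.94 and -0.83 for all 3.

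Whether members changed by different amounts was tested on their ratios inside each library, where scaling between libraries cancels apart from the pseudocount. For miR-29c over miR-29a the log2 ratio (CPM plus 1) averaged -6.16 in Control, with an SD of 0.204, and -5.92 in ICH, with an SD of 0.119 (n = 10 each). It was higher after ICH in 9 of 10 pairs, by 0.24 ± 0.079 (SE). An exact two-sided sign-flip test within pairs gave p = 0.0156, and 0.0625 after adjustment over the 8 ratios tested. Those 8 hold each ratio between members from both the pig-reference and the human-reference counts, which are largely the same reads. They are therefore not independent tests. The difference did not pass. That call lay at the threshold: without pair 2, the one pair in which the ratio was lower after ICH, the difference was 0.29 with an adjusted p of 0.0156. It was 0.29 with an adjusted p of 0.0391 in the authors' filtered counts.

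The ratio of miR-29b to miR-29a changed by 0.06 ± 0.10 (SE; adjusted p = 0.679, exact sign-flip test) and was higher in 6 of 10 pairs. That of miR-29b to miR-29c changed by -0.18 ± 0.13 (adjusted p = 0.391) and was higher in 2 of 10 pairs. Neither difference was larger than its spread between pairs.

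**Figure D3:**
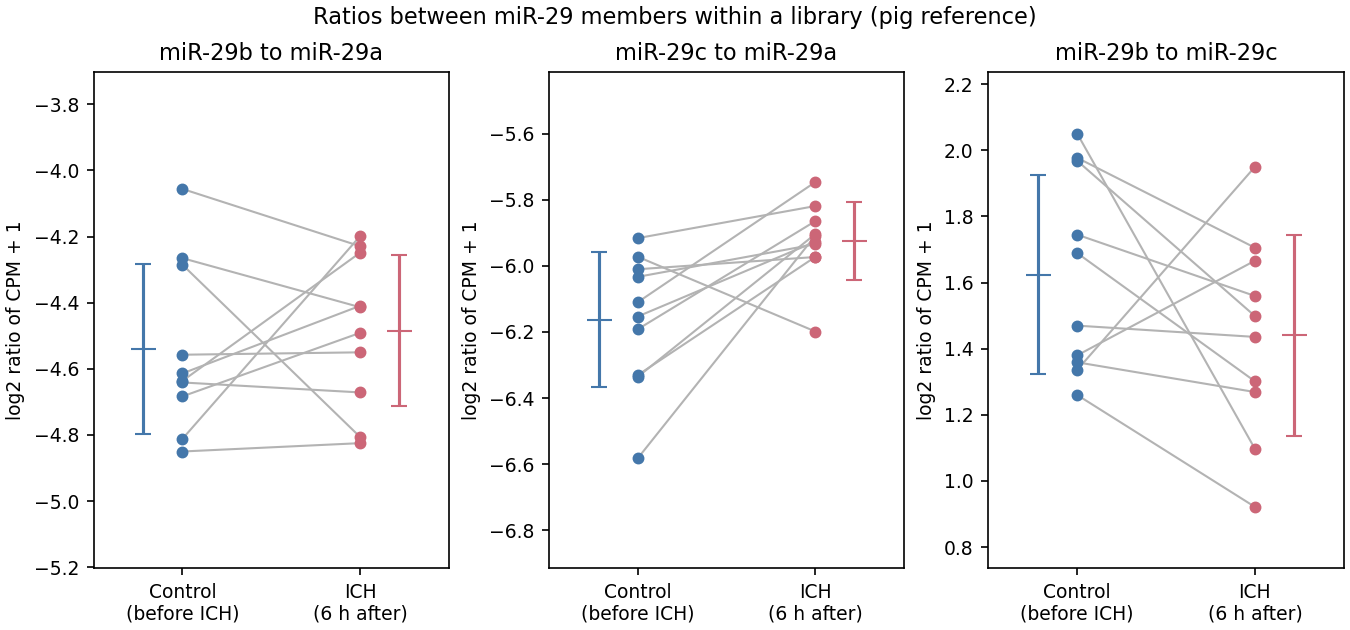
Log2 ratios between members within a library (CPM + 1, pig reference) in Control and ICH, joined by replicate number, with the mean ± SD beside the points; each panel spans the same range. The ratio of miR-29c to miR-29a is higher after ICH in 9 of 10 pairs, while the lines of the other ratios cross in both directions.

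The human-reference counts separate the arms. They are largely the same reads: over the 20 libraries ssc-miR-29a and hsa-miR-29a-3p differed by at most 10 reads, miR-29b by at most 5 and miR-29c by at most 1. They are therefore not independent evidence. There 15 of 245 miRNAs fell (6.12%) and 32 rose (13.1%), with 19.2% called in all (edgeR with the block). Without the block 2.86% rose and 3.67% were called in all. Of the 5 miR-29 rows tested, 2 fell, 0 rose and 3 did not pass.

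The guide strands gave smaller fold changes than in the pig-reference counts. hsa-miR-29a-3p fell to 0.747 (log2 fold change -0.42 ± 0.092 SE, adjusted p = 0.00209, lower in 10 of 10 pairs), from 2777 ± 506 to 2079 ± 401 CPM (SD, n = 10 each). Without the block its adjusted p was 0.0511. hsa-miR-29b-3p fell to 0.775 (-0.37 ± 0.13, adjusted p = 0.0496, lower in 9 of 10 pairs), at the edge of the threshold. Its adjusted p was 0.0506 with limma voom and 0.270 without the block. Leaving out pair 1, 6, 7, 8 or 10 gave 0.0506, 0.0827, 0.140, 0.0707 and 0.0936. hsa-miR-29c-3p had a log2 fold change of -0.19 ± 0.14 and an adjusted p of 0.393.

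The 2 tables differed in how TMM scaled the libraries. The median log2 fold change over all miRNAs tested was -0.04 in the pig-reference and 0.03 in the human-reference counts. Relative to that median miR-29a changed by -0.44 and -0.45, miR-29b by -0.39 and -0.39, and miR-29c by -0.21 and -0.21. With library totals in place of TMM the human-reference median moved by -0.11, and 15 miRNAs then rose and 24 fell. The log2 fold change of miR-29a was -0.53 in both tables under that scaling.

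The 5p arms were scarce, to different degrees. They were read here from the human-reference counts only. The part that sequence differences between pig and human play in their counts was not tested. Of the miR-29a reads, 14 of the Control and 7 of the ICH reads were 5p, against 42260 and 29914 of the 3p arm. hsa-miR-29a-5p was at 0 in 8 of 20 libraries, where a count of 0 allows up to 2.14 to 3.55 CPM, and it was not tested. For miR-29b the 5p arms of both hairpins together made up 11.7% ± 5.35 of its Control reads and 13.7% ± 3.84 of its ICH reads (SD, n = 10 each). In miR-29c the 5p arm took 27.2% ± 7.61 and 27.2% ± 7.23. The share of 5p reads was thus far larger for miR-29c than for miR-29a in these libraries.

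Only the 5p arms tell the copies of miR-29b apart. hsa-miR-29b-2-5p, from the hairpin next to miR-29c, had 148 reads in Control and 137 in ICH, and hsa-miR-29b-1-5p, from the hairpin next to miR-29a, had 61 and 67. The former was the higher of these in 9 of 10 libraries of each group. hsa-miR-29b-1-5p did not pass the low-count filter, with 3 to 14 reads per library. hsa-miR-29b-2-5p ran from 4.87 to 15.2 CPM in Control and from 2.13 to 13.4 in ICH, a log2 fold change of -0.04 ± 0.23 (SE; adjusted p = 0.936, edgeR with the block), with 5 of 10 pairs lower. hsa-miR-29c-5p ran from 7.55 to 22.2 and from 3.35 to 20.4 CPM, a log2 fold change of -0.16 ± 0.21 (adjusted p = 0.638), with 7 of 10 pairs lower. These values rest on 2 to 41 reads per library.

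The log2 ratio of hsa-miR-29b-2-5p to hsa-miR-29b-3p changed by 0.28 ± 0.23 (SE; adjusted p = 0.391, exact sign-flip test), and that of hsa-miR-29c-5p to hsa-miR-29c-3p by 0.02 ± 0.17 (adjusted p = 0.922). Both differences lay within the spread between pairs.

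miR-29 is abundant in lymphocytes, so its change was set beside lists of miRNAs linked to blood cell types. In the lymphocyte list, without miR-29, 4 of 11 tested pig rows fell, 1 rose and 6 did not pass (edgeR with the block), against 10.1% falling and 11.7% rising among all pig rows tested. The list was chosen with earlier results of these data known, so its counts are a description. Its median log2 fold change was -0.22, and that of all miRNAs tested -0.04. miR-150, a regulator of the transcription factor MYB in mature lymphocytes, changed by -0.45 ± 0.10 (SE; adjusted p = 0.00398). miR-181a, which tunes T cell receptor signalling, changed by -0.39 ± 0.080 and miR-31 by -0.69 ± 0.16. miR-181b changed by -0.22 ± 0.079, at the edge of the threshold (adjusted p = 0.0490). miR-342 had a value of -0.40 ± 0.15 and did not pass (adjusted p = 0.0555). Also not passing were miR-181c (0.22) and miR-155-5p (0.11), above 0, and miR-146a-5p (-0.22), miR-26a (-0.18) and miR-146b (-0.06), below it. The one that rose was miR-181d-5p (0.44 ± 0.092), and the split of reads among the closely similar miR-181 members is uncertain. Without the block 0 of the 11 passed, with 6 at an unadjusted p under 0.05. The list's summed level ran from 97552 to 143791 CPM in Control and from 86748 to 120514 in ICH. Most of it was miR-26a (mean 75169 and 65672 CPM), which did not pass. In the human-reference counts 3 of 16 rows fell (miR-150-5p, miR-181a-5p and miR-31-5p) and 2 rose (miR-181c-3p and miR-181d-5p). The shares among all rows there were 6.12% falling and 13.1% rising. miR-181b-5p had -0.16 in those counts and did not pass (adjusted p = 0.210, edgeR with the block). Without the block 0 of the 16 passed, with 5 at an unadjusted p under 0.05.

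The change of each member was compared with that of miR-150 by the ratio within a library. The log2 ratio of miR-29a to miR-150 changed by -0.04 ± 0.11 (SE; adjusted p = 0.828 over 3 ratios, exact sign-flip test) and was higher in 4 of 10 pairs. For miR-29b it changed by 0.02 ± 0.084 (adjusted p = 0.828), and for miR-29c by 0.20 ± 0.12 (adjusted p = 0.410). A difference between the fall of miR-29a or miR-29b and that of miR-150 was thus not detected with these pairs.

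The lists for other blood cells are read against the same shares of all rows tested, 11.7% rising and 10.1% falling in the pig-reference and 13.1% and 6.12% in the human-reference counts. In the myeloid list 3 of 9 human-reference rows rose, namely miR-223-3p (0.63 ± 0.15 SE), the myeloid miRNA that restrains neutrophil activation, miR-223-5p (0.82 ± 0.12) and miR-27a-5p (0.73 ± 0.11). These are both arms of miR-223 and the scarcer arm of miR-27a. The more abundant miR-27a-3p (0.04 ± 0.087), miR-23a-3p (-0.04 ± 0.087) and miR-24-3p (0.11 ± 0.080) did not pass, nor did the other rows of the list. Leaving out the block also gave 3 rising. The summed level of this list was 19409 to 22475 CPM in Control and 22290 to 25200 CPM in ICH. In the pig-reference counts, where miR-223 was not analysed here, 0 of 6 myeloid rows passed and 0 had an unadjusted p under 0.05 (edgeR with the block); DESeq2 also called 0, and without pair 4 edgeR called 1 rise. The pig-reference sums were 19393 to 22909 and 19492 to 23197 CPM.

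In the red cell and platelet lists at most 2 members passed in either direction with the block, which with 7 to 10 rows a list is not set apart from the share of all rows. In the red cell list 1 of 7 pig rows rose, miR-486 (0.57 ± 0.13), and without pair 4 the count was 3 rising and 1 falling. miR-451 had 0.57 ± 0.27 (adjusted p = 0.158) and miR-144 had 0.40 ± 0.15 (adjusted p = 0.0650). The summed level of that list ran from 5960 to 8984 CPM in Control and from 4062 to 7964 in ICH. Most of it was miR-363 (mean 4146 and 3545 CPM) and miR-16 (1724 and 1442), which did not pass. The means of miR-451 (280 and 377), miR-144 (130 and 167) and miR-486 (110 and 160) were higher in ICH, and those of the other members lower. In the human-reference counts 2 of 10 rose, miR-144-3p (0.47 ± 0.14) and miR-486-5p (0.63 ± 0.13), and without pair 4 the count was 1 rising and 3 falling. Without the block edgeR called 0 red cell rows in either set of counts, with 1 at an unadjusted p under 0.05 in each. In the platelet list 1 of 9 pig rows rose, miR-126-3p (0.50 ± 0.098), and 2 fell, miR-151-3p (-0.27 ± 0.089) and miR-151-5p (-0.44 ± 0.11); without pair 4, 1 rose and 1 fell. Its sums were 45553 to 64813 and 47778 to 58939 CPM, mostly miR-191 (mean 47257 and 45581 CPM), which did not pass. In the human-reference counts 1 of 10 rose (miR-126-3p) and 1 fell, the merged entry miR-151a-5p@. Without the block 0 of the 9 pig rows passed, with 2 at an unadjusted p under 0.05, and 1 of the 10 human-reference rows rose. Among the tested rows of these lists the scarcest, hsa-miR-126-5p, averaged 11.4 CPM in Control and 14.7 in ICH. The part of cell mixture in the fall of miR-29a and miR-29b was not tested.

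**Figure D4:**
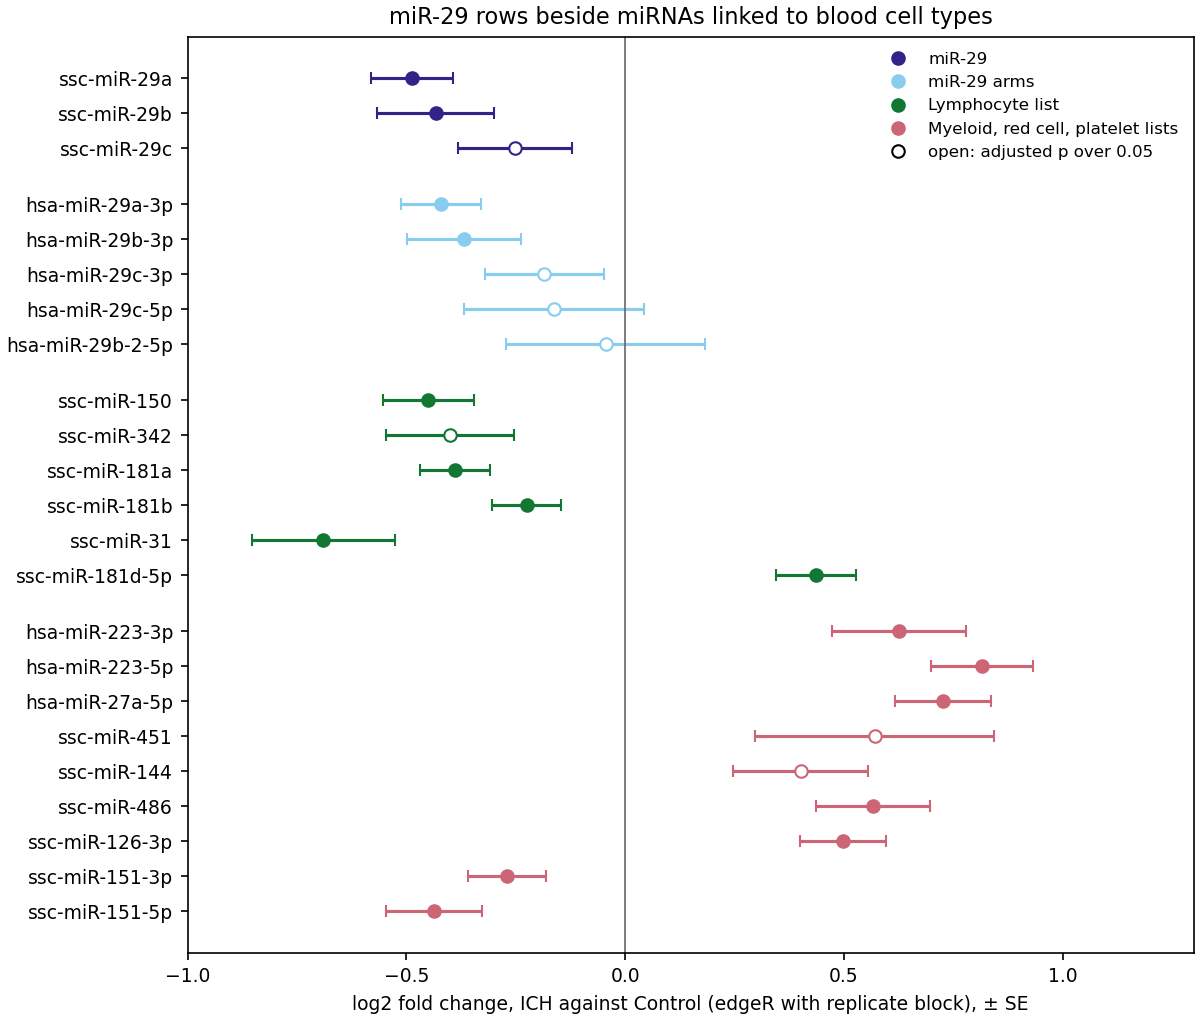
Log2 fold change ± SE (edgeR with the replicate block) of the miR-29 rows and of part of the listed blood cell miRNAs. Names beginning ssc are from the pig-reference and hsa from the human-reference counts, and open symbols have an adjusted p over 0.05. From the lists, fixed markers and some members that passed are shown. Most members that did not pass are left out, among them hsa-miR-23a-3p (-0.04), hsa-miR-27a-3p (0.04), hsa-miR-24-3p (0.11), ssc-miR-16 (-0.27) and ssc-miR-363 (-0.23). Left out of the lymphocyte list are ssc-miR-181c (0.22), ssc-miR-155-5p (0.11), ssc-miR-146b (-0.06), ssc-miR-26a (-0.18) and ssc-miR-146a-5p (-0.22). The miR-29 rows lie at or below -0.04, miR-29a (-0.49) beside miR-150 (-0.45), while miR-223-3p lies at 0.63.

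Over the 20 libraries, log2 CPM of miR-29a had a Pearson's r of 0.88 with miR-29b and 0.86 with miR-29c. Outside the family, among 176 tested pig miRNAs, the closest to miR-29a were miR-181a (r = 0.87), miR-142-3p (0.87) and miR-30b-5p (0.85). For miR-29b they were miR-150 (0.87), miR-142-5p (0.86) and miR-342 (0.84), and for miR-29c miR-365-3p (0.88), miR-30b-5p (0.86) and miR-142-3p (0.86). The correlations include the difference between the groups, and all rows of a library share its scaling, so they describe likeness only.

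Across the 10 pairs, 12 relations between changes were computed, and 0 passed an adjusted p of 0.05 on TMM-scaled values (permutation test, Benjamini-Hochberg over the 12); 4 had an unadjusted p under 0.05. The changes of miR-29a and miR-29b had Pearson's r = 0.74 (permutation p = 0.0139, adjusted p = 0.0646) and Spearman's rho = 0.66 (permutation p = 0.0448, adjusted p = 0.269). Without the 2 pairs farthest from the median of miR-29b, r was 0.76. For miR-29a and miR-29c r was 0.70 (permutation p = 0.0220, adjusted p = 0.0660) and rho 0.72 (permutation p = 0.0232, adjusted p = 0.269), and r was 0.66 without 2 pairs.

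The relation of miR-29b with miR-150 rested on 2 pairs. Its r was 0.82 (permutation p = 0.00852, adjusted p = 0.0646), rho was 0.47 (permutation p = 0.177, adjusted p = 0.424), and r was 0.01 without the 2 pairs farthest from the median change of miR-150. miR-29b and miR-223-3p had r = 0.75 (permutation p = 0.0161, adjusted p = 0.0646) and rho = 0.56 (permutation p = 0.0972, adjusted p = 0.389), and r was 0.79 without 2 pairs. The other 8 relations, of members with each other, miR-150, miR-451 and miR-223-3p, had r from 0.33 to 0.63.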

How the data were processed

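The series measured small RNA from PBMCs of pigs in 10 Control and 10 ICH libraries, made with a NEBNext small RNA kit from 500 ng of total RNA, per the labels' protocols; groups and replicate numbers came from the sample titles. The authors deposited whole-number read counts per miRNA against pig and human references, unfiltered (284 and 608 rows) and filtered (226 and 336 rows). The deposited RPM values were checked and equal the filtered counts scaled to their library total, within 0.005. The submitters' processing notes list bcl2fastq, FastQC and Bowtie, and as builds GRCh38, hg38 and Sscrofa11.1. How reads were assigned, shared between similar miRNAs and filtered is not given in the sources used here.

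Unfiltered counts were tested with edgeR 4.0.16 under R 4.3.3 (low counts removed by filterByExpr, TMM, robust quasi-likelihood fit) over all rows of a table, with the replicate number as a block, as the design text describes a draw before and another 6 h after ICH. Equal numbers had correlated deviations from their group means (0.129 to 0.768 in the pig table, all 10 over 0.1, with a median of -0.065 between different numbers). In 7 of the 10 numbers, in each set of counts, the Control and the ICH library were each other's best match. The labels do not state that equal numbers are one animal. Control and ICH libraries of the same number also stand next to each other in the sample order of the column names. The part of shared handling in these correlations was not tested. Each SE is the fold change over the root of its F statistic. Log2 CPM used a prior count of 2. Ratios used CPM plus 1 from library totals and the exact sign-flip test, whose smallest p is 0.00195; relations used 100000 resamples. limma 3.58.1, DESeq2 1.42.0, scipy 1.17.1 and matplotlib 3.10.9 were also used. The fits were tested on simulated counts. miRNAs outside the family were named by rule: the 3 with the highest correlation with each pig member, fixed cell markers, and list members that passed. Names were matched to the lists ignoring the species prefix and the arm. The members, the lists and the tests were chosen with earlier results of these data known. No 2 libraries of a group agreed within sampling noise (chi-square per degree of freedom at least 14.2). Nothing in the labels says more of how replicates were taken. The p values of fits with the block and of sign-flip tests rest on the spread of the change between these pairs. Those of fits without the block rest on the spread between libraries of a group. Positions are from RefSeq's gene table of Sscrofa11.1.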

Additional observations from a re-analysis of the deposited data

Results flagged for a closer look

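Of 42 groups of 10 libraries examined (each miR-29 row, ratio and family share in each group), 3 held an extreme library whose gap to the next, as a share of the range, passed the 95% limit of Dixon's test. About 1 group in 20 does so by chance. ICH replicate 8 was low for hsa-miR-29b-2-5p, at 1.825 log2 CPM on 2 reads, while the other 9 ran from 3.094 to 3.888. ICH replicate 2 was low for hsa-miR-29c-5p, at 2.251 log2 CPM on 3 reads, while the other 9 ran from 3.592 to 4.450. The same library was low for the log2 ratio of miR-29c to miR-29a in the pig-reference counts, at -6.199 against -5.973 to -5.746 in the other ICH libraries, on 20 reads of miR-29c.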

How the results depend on the processing

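In the blocked alternatives (DESeq2, limma voom, library totals, DESeq2 size factors, no low-count filter, filtered counts) miR-29a passed with log2 fold changes of -0.53 to -0.44 (pig reference) and -0.53 to -0.42 (human reference), and miR-29b passed except with limma voom on human-reference counts (-0.37). Without the replicate block miR-29a had -0.48 and -0.42 and miR-29b -0.43 and -0.37 in the pig-reference and human-reference counts, and none passed; edgeR then called 0 of 179 and 9 of 245 miRNAs. Leaving out each pair in turn gave miR-29a -0.53 to -0.43 and -0.51 to -0.37, and miR-29b -0.50 to -0.36 and -0.52 to -0.31. It gave hsa-miR-29b-2-5p -0.20 to 0.0052 and counts of 27 to 59 called pig-reference miRNAs, the highest without pair 4. miR-29c passed in none of these.

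The ratio of miR-29c to miR-29a passed without the replicate block (0.24 in both tables), with a pseudocount of 10 CPM (0.30 in both), which shrinks the change of the scarcer miR-29c by construction, and in filtered counts (0.29 in both); leaving out pairs gave 0.19 to 0.29 in both. Ratios near 0 changed sign on leaving out a pair: miR-29b to miR-29a (-0.0062 to 0.12 pig, -0.0040 to 0.12 human), hsa-miR-29c-5p to 3p (-0.089 to 0.077, and -0.066 in filtered counts), miR-29a to miR-150 (-0.097 to 0.017) and miR-29b to miR-150 (-0.027 to 0.078). With library totals 5 of the 12 relations passed: miR-29a with miR-29b (0.85), miR-29c (0.78) and miR-150 (0.71), and miR-29b with miR-150 (0.88) and miR-223-3p (0.82); changes then share any error of the library total. The cause of these shifts was otherwise not tested. The paired and unpaired fits differ in calls for miR-29a and miR-29b only among the miR-29 rows. The 5p arms rest on 0 to 41 reads per library and miR-29c on 20 to 128; the part of depth in their calls was not tested.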

Other observations

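The authors' filter removed different shares of reads from the members. In the pig-reference table it kept 98.6% of miR-29a reads over all libraries, 91.1% of miR-29b reads and 84.7% of miR-29c reads. Among the 5p arms it kept 72.1% of hsa-miR-29c-5p reads, 71.9% of hsa-miR-29b-1-5p reads and 63.2% of hsa-miR-29b-2-5p reads, and it left out hsa-miR-29a-5p, which had 21 reads in all. In the filtered pig-reference counts the log2 fold change was -0.45 for miR-29a, -0.38 for miR-29b and -0.16 for miR-29c.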
